A study of Mus musculus with 6 samples.

Results

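The 10 genes followed here break down or build triglyceride and form a list of names drawn up with earlier results of these data known: the lipases *Pnpla2*, *Lipe*, and *Mgll*, the regulators *Abhd5* and *G0s2*, the patatin-like relative *Pnpla3*, and the synthesis enzymes *Gpam*, *Agpat2*, *Dgat1*, and *Dgat2*. All 10 were on the array, with 16 of its 39325 usable probes, among 20630 named genes. RNA came from interscapular brown adipose tissue (iBAT) of male C57BL/6 mice aged 16 weeks, 3 with the control genotype and 3 *ob/ob* mice, which carry a mutated leptin gene in the whole body. Each sample was hybridized with 1 dye to 1 Agilent mouse array. Whether a sample was 1 mouse or a pool was not given, so p values measure the spread between these samples only.

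Brown adipocytes store triglyceride in many small droplets and hydrolyze it when sympathetic nerves signal through cAMP. PNPLA2 (ATGL) removes the first fatty acid from triglyceride, LIPE (HSL) acts mainly on the diglyceride, and MGLL on the monoglyceride. ABHD5 activates PNPLA2, whereas G0S2 inhibits it. In the opposite direction, GPAM and AGPAT2 attach the first and second acyl chains to the glycerol backbone, and DGAT1 and DGAT2 attach the last.

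Signals are given on the log2 scale after quantile normalization, so 1 unit is a 2-fold step, and differences are *ob/ob* minus control. Where several probes read 1 gene, its brightest was taken, and signals of different genes are not compared. The scanner software marked 83.5% to 89.9% of spots per array as well above background, and no spot was saturated. Control 3 and *ob/ob* 3 stood apart from their groups. Across probes, control 3 had Spearman correlations of 0.915 (*ob/ob* 1) and 0.944 (*ob/ob* 2), compared with 0.642 and 0.730 for the other controls, and *ob/ob* 3 had 0.858 with control 1, compared with 0.573 and 0.488 for the other *ob/ob* arrays. Whether these arrays carry the right labels was not tested, and every difference below takes the labels as given. Results are also given without control 3 and *ob/ob* 3. *Ucp1*, the uncoupling protein of brown fat, was read at 13.05, 11.72, and 9.48 on control arrays 1, 2, and 3, compared with 8.93, 9.12, and 10.03 on *ob/ob* arrays 1, 2, and 3.

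All 10 genes had a lower mean in *ob/ob* iBAT, by 0.03 to 1.82 log2 units, against 57.2% of all genes tested, although *Abhd5* turned to 0.042 with scaling to the 75th percentile and *G0s2* to 0.063 with normexp background correction. None passed an adjusted p under 0.05 (limma with Benjamini-Hochberg adjustment over 35448 probes), and neither did any other probe. *Pnpla3* alone had an unadjusted limma p under 0.05, as did 3.73% of all genes tested. By probe, 15 of the 16 were lower (56.4% of all probes tested) and 2, both of *Pnpla3*, had an unadjusted p under 0.05 (3.51% of all probes tested). In none of the 10 did every *ob/ob* array lie on one side of every control array, which was so for 7.92% of all probes tested. The distance between the highest and lowest array ran from 0.28 log2 units for *G0s2* to 4.30 for *Gpam*. In 7 of the 10 genes the highest arrays were control 1, control 2, and *ob/ob* 3, a pattern that 29.8% of all genes tested shared.

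**Figure D1:**
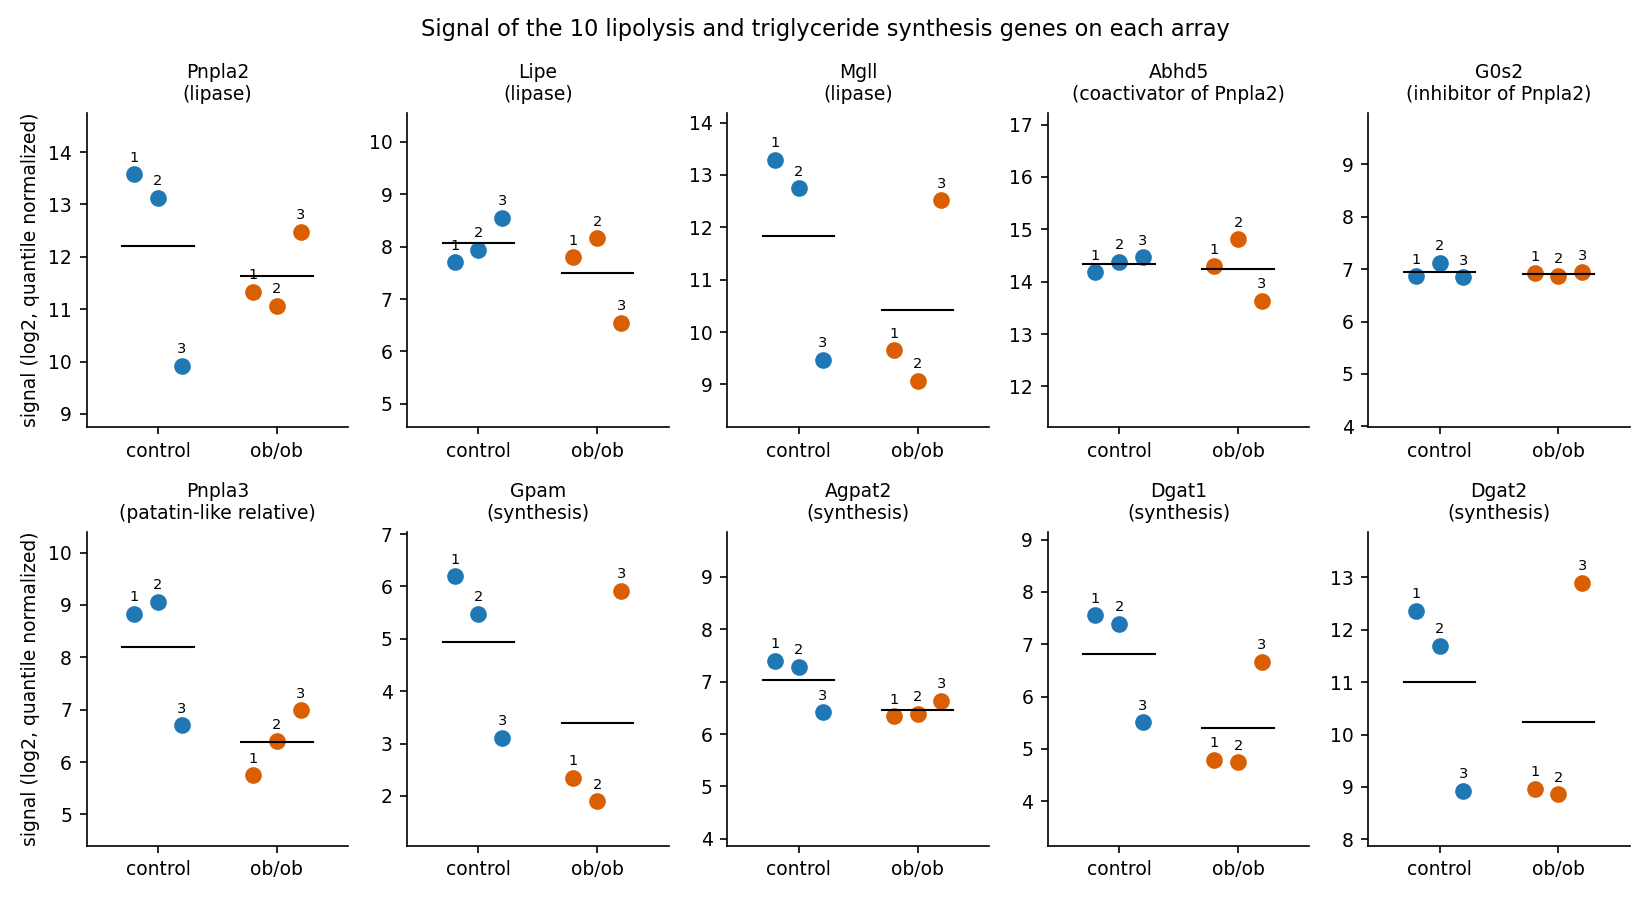
Quantile normalized log2 signal (y axis, the same span of log2 units in each panel) of the brightest probe of each gene in control (blue) and *ob/ob* (orange) iBAT. Points are single arrays with their replicate number, and black lines are group means. Control 3 lies far below control 1 and control 2 for *Pnpla2*, *Mgll*, *Gpam*, and *Dgat2*, whereas *G0s2* stays between 6.84 and 7.12 on all arrays.

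Among the lipases, *Pnpla2* had 1 probe, with signals of 13.57, 13.13, and 9.92 on control arrays 1, 2, and 3, compared with 11.34, 11.07, and 12.48 on *ob/ob* arrays 1, 2, and 3. Control 3 was the lowest of all arrays, and the other controls were the highest. The difference was −0.58 (standard error 1.02, unadjusted limma p = 0.588, exact permutation p = 0.8), and it ran from −1.72 without control 3 to 0.10 without control 1.

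*Mgll* was read by 4 probes, in 2 bright ones with nearly the same profile and 2 dimmer ones with a flatter one. The brightest gave 13.29, 12.74, and 9.47 on the control arrays compared with 9.65, 9.07, and 12.51 on the *ob/ob* arrays. Here *ob/ob* 3 lay beside control 1 and control 2, and control 3 beside *ob/ob* 1 and *ob/ob* 2. Its difference was −1.42 (standard error 1.30, unadjusted limma p = 0.315, exact permutation p = 0.3), and ran from −2.61 without control 3 to −0.69 without control 1. The second bright probe gave −1.50 (standard error 1.12). The dimmer probes gave −0.35 (standard error 0.44) and −0.48 (standard error 0.33). The last of these was the only one of the 16 probes without overlap between the groups, with 5.38, 5.78, and 5.06 on the control arrays compared with 4.82, 4.98, and 4.97 on the *ob/ob* arrays (exact permutation p = 0.1, two-sided, below which no split of 3 and 3 arrays can go). Its unadjusted limma p was 0.196.

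*Lipe* ran the other way across arrays. Its single probe gave 7.70, 7.94, and 8.55 on the control arrays compared with 7.80, 8.16, and 6.55 on the *ob/ob* arrays, so that control 3 was the highest and *ob/ob* 3 the lowest. The difference was −0.56 (standard error 0.52, unadjusted limma p = 0.319, exact permutation p = 0.5), and *ob/ob* 3 carried most of it: without that array it was −0.088. The profiles of *Lipe* and *Mgll*, each centered on its own mean, differed by a root mean square of 2.16 log2 units over the 6 arrays, compared with 0.36 for *Mgll* and *Gpam*.

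The regulators of PNPLA2 had the smallest differences. *G0s2* was 6.94 ± 0.15 (SD, n = 3) in control and 6.91 ± 0.04 (SD, n = 3) in *ob/ob* iBAT, a difference of −0.03 (standard error 0.29), the smallest of the 10. The brightest probe of *Abhd5* was 14.34 ± 0.15 (SD, n = 3) in control and 14.25 ± 0.59 (SD, n = 3) in *ob/ob* iBAT, a difference of −0.10 (standard error 0.40). The 3 probes of *Abhd5* disagreed across arrays. The dimmest gave 5.97, 5.54, and 3.88 on the control arrays compared with 4.57, 4.38, and 6.98 on the *ob/ob* arrays, with control 3 not well above background, whereas the middle one stayed between 5.99 and 6.30. The dimmest was also the only one of the 16 probes with a higher mean in *ob/ob* iBAT (0.18, standard error 0.89). Without control 3 and *ob/ob* 3, its difference was −1.29.

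*Pnpla3*, a relative of *Pnpla2* with lipase and acyltransferase activities described for its protein, had the largest difference of the 10. Its brighter probe gave 8.83, 9.06, and 6.70 on the control arrays compared with 5.74, 6.39, and 6.99 on the *ob/ob* arrays. Control 1 and control 2 were well above all others, and the groups overlapped only because *ob/ob* 3 lay just above control 3. The difference was −1.82 (standard error 0.72, unadjusted limma p = 0.0427, adjusted p = 1, exact permutation p = 0.2). The second probe gave 7.45, 7.50, and 5.95 on the control arrays compared with 5.28, 4.31, and 6.03 on the *ob/ob* arrays, with *ob/ob* 2 not well above background, and a difference of −1.76 (standard error 0.63, unadjusted limma p = 0.0303, adjusted p = 1, exact permutation p = 0.2). Leaving out control 1, control 2, *ob/ob* 1, or *ob/ob* 2 raised the unadjusted limma p of the brighter probe above 0.05, while its difference stayed negative, from −2.57 to −1.39, with any single array left out.

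The upstream sequences of *Pnpla3*, the gene with the largest difference, and of *Pnpla2*, its closest relative here, are shown for comparison, 250 bases up to the annotated start on the plus strand (RefSeq, GRCm38.p6), at chr15:84167566-84167815 and chr7:141454938-141455187. Capitals mark exact matches, on either strand, to the E-box CACGTG, the cAMP response element TGACGTCA, the GC box GGGCGG, the CCAAT box, and the TATA box TATAAA.
Pnpla3: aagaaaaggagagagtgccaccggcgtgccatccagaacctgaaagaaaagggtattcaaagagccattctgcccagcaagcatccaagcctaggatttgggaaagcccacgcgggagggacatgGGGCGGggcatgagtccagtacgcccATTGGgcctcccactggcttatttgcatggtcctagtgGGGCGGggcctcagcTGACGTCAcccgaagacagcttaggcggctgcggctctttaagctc
Pnpla2: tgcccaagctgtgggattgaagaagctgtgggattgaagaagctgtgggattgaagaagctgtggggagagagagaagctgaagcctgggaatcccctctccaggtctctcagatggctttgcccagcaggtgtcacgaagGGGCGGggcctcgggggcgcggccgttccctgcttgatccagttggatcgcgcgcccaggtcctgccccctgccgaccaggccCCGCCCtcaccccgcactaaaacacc
The *Pnpla3* window held TGACGTCA beginning 46 bases upstream of the start, a CCAAT box on the other strand, and 2 GC boxes. The *Pnpla2* window held 2 GC boxes. Of the 10 genes, 8 had a promoter entry, with 11 windows. *Pnpla3* was the only one of these with TGACGTCA, which 1.55% of all 32851 windows hold. The GC box was found in 8 of the 11 windows, at least once for each of the 8 genes, and in 32.7% of all windows. CACGTG was found in *Mgll* and *Lipe* (6.02% of all windows), CCAAT in *Pnpla3* and *Gpam* (33.8%), and TATAAA in 0 of the 11 (12.4%). These matches describe the letters only, and binding was not measured.

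On the synthesis side, all 4 enzymes had control 1, control 2, and *ob/ob* 3 as their highest arrays. *Dgat1* gave 7.56, 7.39, and 5.52 on the control arrays compared with 4.80, 4.75, and 6.67 on the *ob/ob* arrays. Control 3 lay above *ob/ob* 1 and *ob/ob* 2, and *ob/ob* 3 below control 1 and control 2. The difference was −1.42 (standard error 0.78, unadjusted limma p = 0.116, exact permutation p = 0.2), or −0.75 with normexp background correction. *Dgat2* gave 12.36, 11.70, and 8.93 on the control arrays compared with 8.97, 8.86, and 12.90 on the *ob/ob* arrays. Its highest array was thus *ob/ob* 3, and the difference of −0.76, which ran from −2.08 to −0.065 with single arrays left out, had a standard error of 1.38 (unadjusted limma p = 0.602, exact permutation p = 0.9).

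*Gpam*, which makes the first committed step, gave 6.20, 5.48, and 3.11 on the control arrays compared with 2.35, 1.90, and 5.91 on the *ob/ob* arrays. Its probe was well above background on only 2 control arrays and 1 *ob/ob* array, so the low values are near the limit of the measurement. The difference was −1.54 (standard error 1.28, unadjusted limma p = 0.273, exact permutation p = 0.3). It was −0.36 with normexp background correction, and it ran from −2.81 without *ob/ob* 3 to −0.80 without *ob/ob* 2. *Agpat2*, whose loss causes lipodystrophy, gave 7.40, 7.28, and 6.42 on the control arrays compared with 6.34, 6.39, and 6.63 on the *ob/ob* arrays, and the 3 *ob/ob* arrays lay within a narrow band that took in control 3. The difference was −0.58 (standard error 0.38, unadjusted limma p = 0.179, exact permutation p = 0.2), or −0.29 with normexp background correction.

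**Figure D2:**
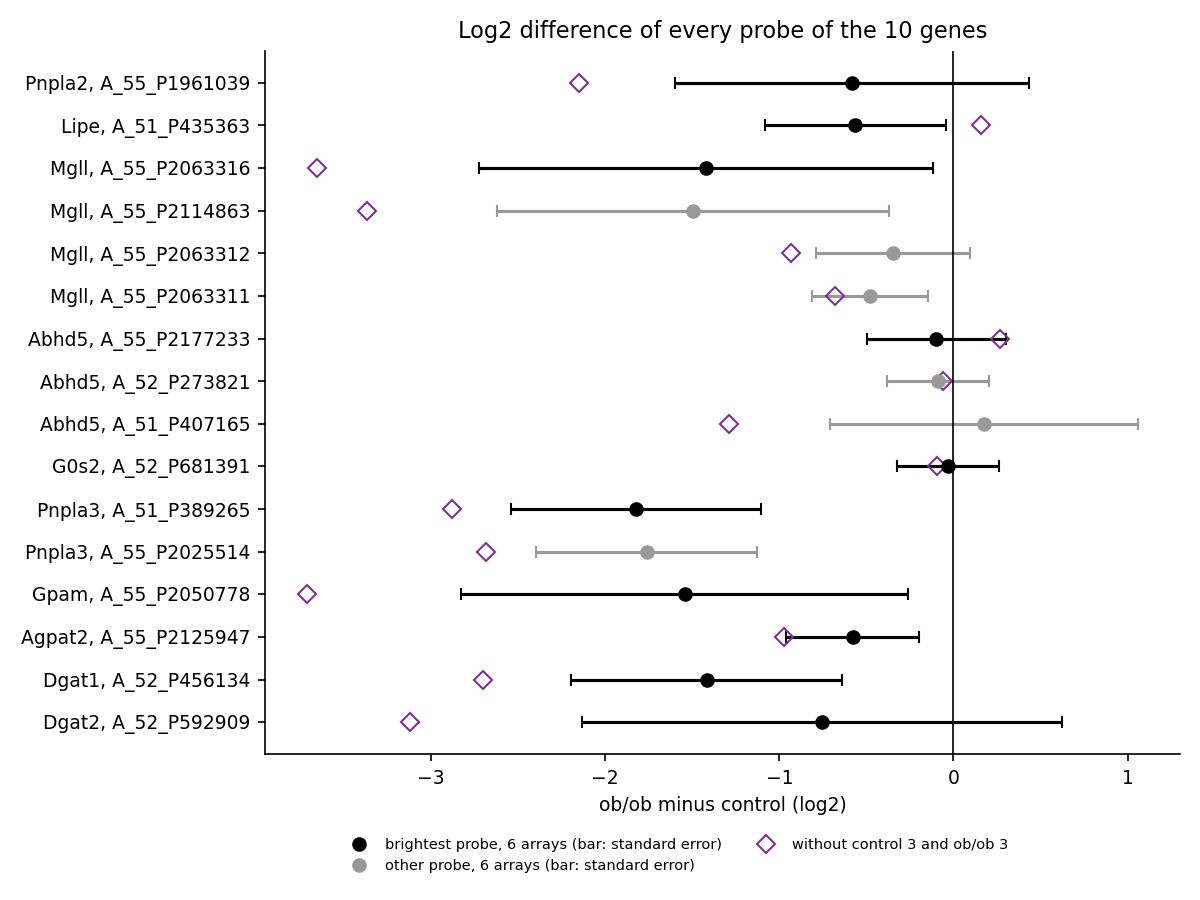
Log2 difference, *ob/ob* minus control (x axis), of all 16 probes of the 10 genes (y axis, gene and probe name). Circles with standard errors use all 6 arrays, black for the brightest probe of a gene and gray for its others, and open diamonds leave out control 3 and *ob/ob* 3. The diamonds lie far to the left of the circles for *Pnpla2*, the bright probes of *Mgll*, *Gpam*, *Dgat1*, and *Dgat2*, and to the right of 0 for *Lipe* and the brightest probe of *Abhd5*.

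The values of these genes turned on the arrays that stood apart. With 2 arrays against 2, 8 of the 10 genes were lower in *ob/ob* iBAT, against 46.4% of all genes tested. The log2 difference was −3.66 for *Mgll*, −3.12 for *Dgat2*, −2.88 for *Pnpla3*, −2.70 for *Dgat1*, −2.15 for *Pnpla2*, and −0.98 for *Agpat2*. For *Gpam*, neither *ob/ob* array left was well above background, so the size of its difference is uncertain. With those arrays set to the lowest signal of any probe well above background, it was 3.81-fold higher in the controls (measured log2 difference −3.71). This is not a strict bound, because probes not well above background can read higher than that signal. With *Gpam* at its measured values, these 7 genes passed an adjusted limma p under 0.05, but so did 45.9% of all probes tested, and 55.1% of all genes tested had an unadjusted p under 0.05. *Lipe* (0.16), *Abhd5* (0.27), and *G0s2* (−0.095) did not pass by brightest probe. The probes of *Abhd5* disagreed here too. Its dimmest probe was lower in *ob/ob* iBAT (−1.29) and did pass, while its middle probe (−0.062) did not. Control 1, control 3, and *ob/ob* 1 had been scanned together, and within that scan, which holds 1 *ob/ob* array taken to vary like the others, the differences were −2.02 for *Pnpla3*, −1.74 for *Dgat1*, −1.73 for *Mgll*, −1.68 for *Dgat2*, −0.57 for *Agpat2*, −0.41 for *Pnpla2*, −0.33 for *Lipe*, −0.031 for *Abhd5*, and 0.068 for *G0s2*. *Gpam* was well above background only on control 1 within that scan. None of the 10 had an unadjusted limma p under 0.05 there.

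Lipases were then set against synthesis enzymes within each array, from the deviation of each gene from its own mean over the 6 arrays. The mean deviation of *Pnpla2*, *Lipe*, and *Mgll* was 1.25, 0.996, and −0.96 on control arrays 1, 2, and 3, compared with −0.68, −0.84, and 0.24 on *ob/ob* arrays 1, 2, and 3. For *Gpam*, *Agpat2*, *Dgat1*, and *Dgat2* it was 1.47, 1.05, and −0.91 on the control arrays compared with −1.30, −1.43, and 1.12 on the *ob/ob* arrays. As averages, both sides were thus high and low on the same arrays, although *Lipe* alone was highest on control 3 (8.55) and lowest on *ob/ob* 3 (6.55). Lipases minus synthesis enzymes came to −0.22, −0.06, and −0.05 on the control arrays compared with 0.62, 0.59, and −0.88 on the *ob/ob* arrays. The 3 controls lay close together, while *ob/ob* 1 and *ob/ob* 2 lay above them and *ob/ob* 3 below. The profile of *Lipe* was unlike those of *Pnpla2* and *Mgll* (root mean square difference 1.68 and 2.16 log2 units, compared with 0.76 between *Pnpla2* and *Mgll*). On control 3, *Pnpla2* (9.92) and *Mgll* (9.47) were far below the other controls, while *Lipe* was at its highest there. The pattern of the contrast over arrays, with the 3 controls close together, thus depends on *Lipe*. The contrast was not computed without that gene. The group means were −0.11 ± 0.10 (SD, n = 3) and 0.11 ± 0.86 (SD, n = 3), a difference of 0.22 that is smaller than the spread between the *ob/ob* samples. Without *ob/ob* 3 it was 0.71, and without *ob/ob* 1 or *ob/ob* 2 it was −0.036 and −0.024. With normexp background correction it was −0.32, and without *Gpam*, which was not well above background on all arrays, 0.061. The median difference of the 3 lipases was −0.58, compared with −1.09 for the 4 synthesis enzymes and −0.086 for all genes tested.

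**Figure D3:**
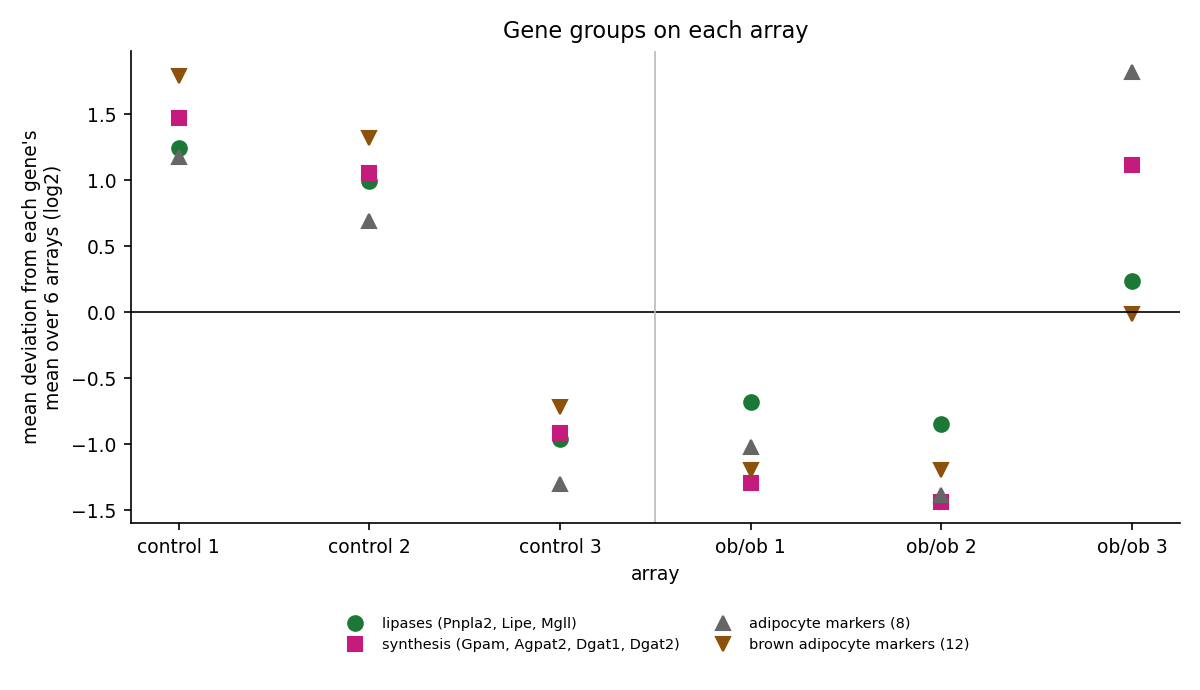
Mean deviation from each gene's own mean over the 6 arrays (y axis, log2 units) of the 3 lipases, the 4 synthesis enzymes, 8 general adipocyte markers, and 12 brown adipocyte markers on each array (x axis). All 4 gene groups are high in control 1 and control 2 and low in control 3, *ob/ob* 1, and *ob/ob* 2, and in *ob/ob* 3 they lie between −0.01 for the brown adipocyte markers and 1.82 for the adipocyte markers.

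The mean of the general adipocyte markers was highest on control 1, control 2, and *ob/ob* 3, as in 7 of the 10 genes. By brightest probe, *Lipe*, *Abhd5*, and *G0s2* did not share this pattern. In bulk tissue, fewer cells of a type and less RNA per cell cannot be told apart. The 8 general adipocyte markers (*Adipoq*, *Cfd*, *Pparg*, *Cebpa*, *Plin4*, *Slc2a4*, *Acsl1*, and *Lep*) had a mean signal of 10.32, 9.83, and 7.84 on the control arrays compared with 8.12, 7.76, and 10.96 on the *ob/ob* arrays, and 6 of 8 were lower in *ob/ob* iBAT, with a median difference of −0.015, or −2.15 without control 3 and *ob/ob* 3. Of all genes tested, 57.2% were lower. Single differences were −3.09 (*Cfd*), −2.78 (*Slc2a4*), −0.21 (*Plin4*), −0.027 (*Pparg*), −0.0037 (*Adipoq*), −0.00041 (*Acsl1*), and 0.95 (*Cebpa*). *Lep*, the leptin gene mutated in *ob/ob* mice, was higher without overlap between groups (2.07). The second probe of *Acsl1* gave −2.83, lower without overlap. *Adipoq*, the adipocyte hormone adiponectin, gave 11.60, 11.13, and 8.63 on the control arrays compared with 9.53, 8.71, and 13.11 on the *ob/ob* arrays. The 12 brown adipocyte markers had a mean signal of 7.31 to 9.82 on the control arrays compared with 6.84 to 8.02 on the *ob/ob* arrays, with 9 of 12 lower and a median difference of −2.07, or −2.99 without those arrays. The part of either list in the differences above was not tested.

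Markers of cells other than adipocytes also varied with the arrays. The 12 skeletal muscle markers had a mean signal of 8.01 to 10.46 on the control arrays compared with 6.15 to 11.49 on the *ob/ob* arrays, highest in *ob/ob* 3, with 11 of 12 lower in *ob/ob* iBAT (57.2% of all genes tested), and the 7 endothelial markers 7.58 to 9.41 and 6.65 to 8.46. Without control 3 and *ob/ob* 3, the median difference of these lists was −3.02 and −2.23. The muscle marker *Acta1* was 7.56 to 9.64 on the control arrays compared with 6.44 to 11.35 on the *ob/ob* arrays. Of the 11 macrophage markers measured, 8 were higher in *ob/ob* iBAT, with a list mean without overlap between groups, of 7.08 to 7.29 on the control arrays compared with 7.54 to 8.68 on the *ob/ob* arrays, and a median difference of 0.74, or 0.36 without control 3 and *ob/ob* 3. Of the 11, 4 were higher without overlap between groups by brightest probe, while 7.92% of all probes tested had no overlap in either direction and 4.19% were lower without it. Among these were *Lgals3* (4.13), which encodes galectin-3, and *Trem2* (2.25), a lipid receptor of macrophages. By brightest probe, *Itgam* was lower (−1.43) and *Cd163* near 0 (−0.043). *Mrc1* (0.94) and *Gpnmb* (0.95), each well above background on 4 of 6 arrays, were −1.81 and −0.54 without control 3 and *ob/ob* 3. The probes of *Adgre1*, which encodes F4/80, disagreed, with −0.21 for the brightest and 1.03 for the other, or 0.15 and −0.27 without *ob/ob* 3. Those of *Csf1r* disagreed too, with 1.12 for the brightest, 0.67 for the next, and −0.32 for the dimmest, which was lower without overlap. Lists for white adipocytes, lymphocytes, and erythroid cells had median differences of −0.17, −0.14, and −0.37, with group ranges that overlapped, or 0.18, 0.35, and −1.52 without control 3 and *ob/ob* 3. How these cells bear on the lipolysis and synthesis genes was not tested.

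The same pathways hold other genes, and a few of these separated the groups on all arrays. Of 18 further lipolysis genes, 16 were tested, of which 10 were lower in *ob/ob* iBAT and 6 were higher, with a median difference of −0.18. Of all genes tested, 57.2% were lower. *Aqp7*, the channel through which glycerol leaves the adipocyte, was the only one whose brightest probe had an unadjusted limma p under 0.05 or separated the groups. Such a p was found for 3.73% of all genes tested, and 7.92% of all probes tested separated the groups. A dim probe of the lipase gene *Ddhd2* also separated them (−1.02, well above background on 1 *ob/ob* array), while its brightest probe did not (−0.56). *Aqp7* gave 11.17, 11.99, and 10.61 on the control arrays compared with 9.41, 9.69, and 8.64 on the *ob/ob* arrays, so that *ob/ob* 3 and control 3 lay with their own groups. The difference was −2.01 (standard error 0.50, unadjusted limma p = 0.00594, adjusted p = 1, exact permutation p = 0.1), and −2.04 without control 3 and *ob/ob* 3. Next lowest were the carboxylesterases *Ces1f* (−1.26) and *Ces1d* (−0.92). These became −2.49 and −1.60 without control 3. Without *ob/ob* 3, *Ces1d* was −1.95, and *Ces1f* was not well above background on either *ob/ob* array left. At the other end were *Hilpda* (1.0), an inhibitor of PNPLA2, *Lpl* (0.63, but −0.58 by its second probe), which hydrolyzes the triglyceride of lipoproteins, and *Pnpla1* (0.32, but −0.024 with scaling to the 75th percentile), all with overlapping groups. *Hilpda* and *Lpl* were highest in *ob/ob* 3, at 9.15 and 13.69, and their differences without control 3 and *ob/ob* 3 were −1.34 and −1.09. The *Hilpda* probe was well above background on only 2 control and 2 *ob/ob* arrays, so its differences lean on values near the limit of the measurement.

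All 22 further genes of glycerolipid synthesis were tested. Of these, 13 were lower in *ob/ob* iBAT (57.2% of all genes tested) and 9 were higher, with a median difference of −0.11, and 4 were lower without overlap between groups, compared with 4.19% of all probes tested. An unadjusted limma p under 0.05 was found for 2, compared with 3.73% of all genes tested. *Agpat1*, which acts at the same step as *Agpat2*, gave 10.99, 11.06, and 9.28 on the control arrays compared with 8.18, 7.47, and 7.83 on the *ob/ob* arrays. Its difference was −2.61 (standard error 0.57, unadjusted limma p = 0.00325, adjusted p = 1, exact permutation p = 0.1), with every *ob/ob* array below every control array. *Mogat1*, which makes diglyceride from monoglyceride, gave 8.34, 8.53, and 7.82 on the control arrays compared with 7.13, 7.05, and 7.03 on the *ob/ob* arrays, again without overlap, with a difference of −1.16 (standard error 0.33, unadjusted limma p = 0.0121, adjusted p = 1, exact permutation p = 0.1). Without control 3 and *ob/ob* 3, the differences were −3.20 and −1.34. By brightest probe, the glycerol kinase *Gk* (−0.83) and the seipin gene *Bscl2* (−0.49) were the other genes without overlap, with an unadjusted limma p of 0.0513 and 0.152.

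*Gpat4*, which acts at the same step as *Gpam*, was 11.71, 11.42, and 8.11 on the control arrays compared with 7.19, 6.94, and 10.14 on the *ob/ob* arrays, a difference of −2.32 (standard error 1.26, unadjusted limma p = 0.112, exact permutation p = 0.2). The groups overlapped through *ob/ob* 3. *Gpd1*, which makes glycerol 3-phosphate, was 15.42, 14.79, and 11.84 on the control arrays compared with 11.64, 11.37, and 13.80 on the *ob/ob* arrays, a difference of −1.75 (standard error 1.11, exact permutation p = 0.2). Without control 3 and *ob/ob* 3, *Gpat4* was −4.50 and *Gpd1* −3.60. *Lpin3* (1.46), *Gpat2* (1.36), and *Agpat5* (0.70) had the largest positive differences. For *Lpin3* and *Gpat2*, control 3 lay with *ob/ob* 1 and *ob/ob* 2 at the high end, and without control 3 and *ob/ob* 3 their differences were 3.13 and 3.20, while *Agpat5* was raised in *ob/ob* 3 alone and had a difference of −0.080 without it.

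**Figure D4:**
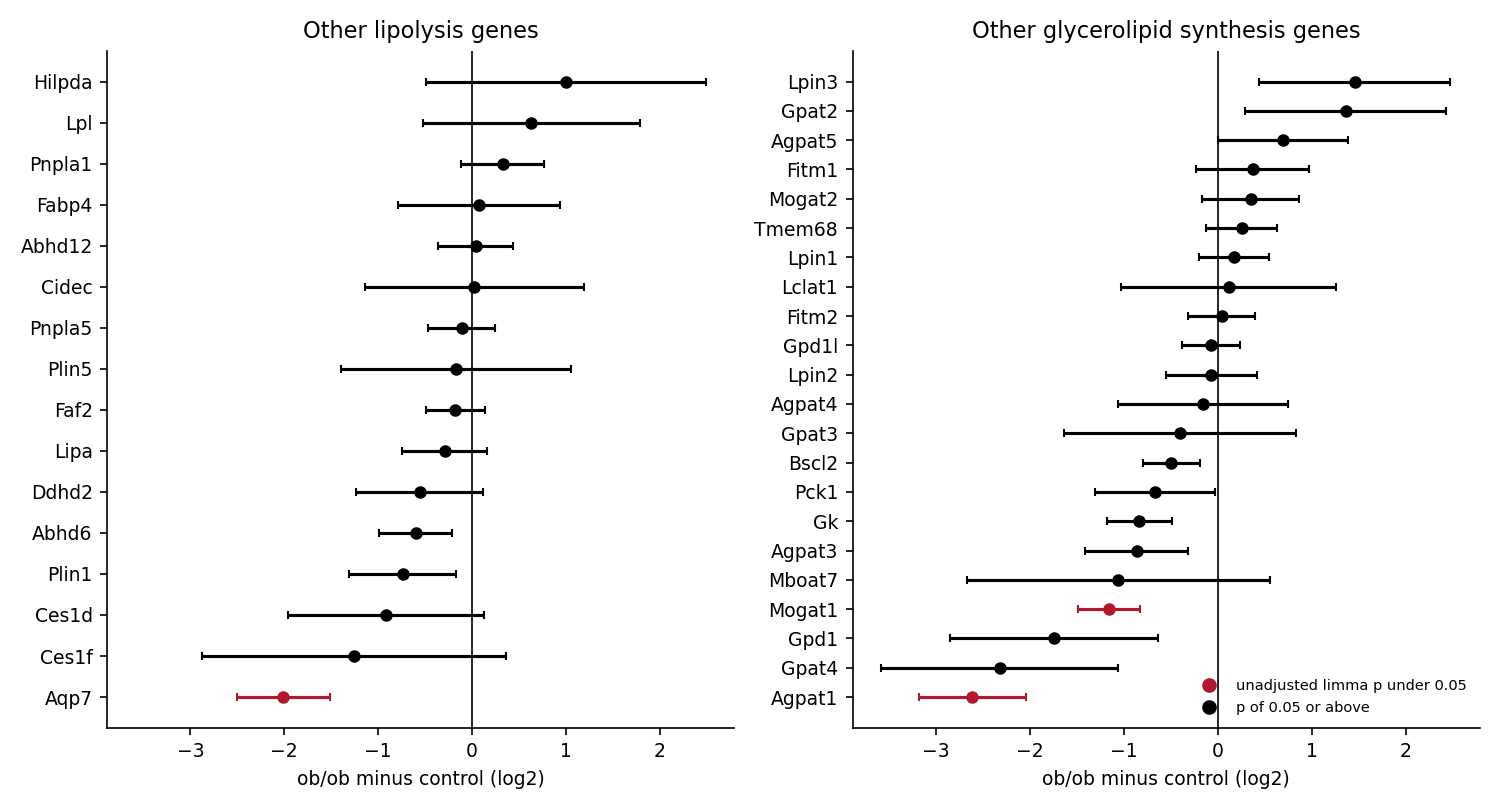
Log2 difference, *ob/ob* minus control, with standard error (x axis) of the brightest probe of 16 other lipolysis genes (left) and 22 other glycerolipid synthesis genes (right), ordered by their difference. Red points had an unadjusted limma p under 0.05 and black points did not. *Aqp7* (−2.01), *Agpat1* (−2.61), and *Mogat1* (−1.16) are the only red points, and none passed an adjusted p under 0.05.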

How the data were processed

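Spot intensity was read and background-corrected by the authors with Agilent Feature Extraction (version 11.0.1.1, per the labels) and deposited without normalization between arrays. The log2 values that the authors deposited beside them had been quantile normalized in GeneSpring and served as an alternative.

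Here, spots with an outlier flag were left out, log2 intensities of a probe's spots were averaged, and the 39325 probes left were quantile normalized. The 35448 probes with a share of at least 0.5 of their spots well above background, as the scanner software flags them, on at least 3 of 6 arrays (19011 named genes) entered limma 3.58.1 (R 4.3.3), followed by Benjamini-Hochberg adjustment. Probes were named through RefSeq accessions (GRCm38.p6, names only), which matched 94.9% of RefSeq probes. Probe sequences and protein sequences were not used here. The code was tested on simulated data.

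The genes, the other pathway genes, and the marker lists were chosen with earlier results of these data known. All 10 genes are named with every probe, and of each list of other pathway genes, the 3 highest and 3 lowest differences and any gene with an unadjusted p under 0.05, by brightest probe. Of the markers, *Adipoq*, *Ucp1*, *Acta1*, and *Adgre1* were chosen to be named. *Gk*, *Bscl2*, *Ddhd2*, *Lgals3*, *Trem2*, *Itgam*, *Cd163*, *Mrc1*, *Gpnmb*, *Csf1r*, *Acsl1*, *Pparg*, *Lep*, *Cfd*, *Cebpa*, *Plin4*, and *Slc2a4* were named after their values were seen. Intensities have no counting error to report, and the number of arrays limits the precision. The 19 alternatives changed the scaling, background correction, source of values, detection filter, test, weights, blocks, arrays, and probes of a gene. Array weights estimated gene by gene were chosen after seeing the data.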

Additional observations from a re-analysis of the deposited data

How the results depend on the processing

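None of the 10 genes passed an adjusted p under 0.05 under 16 of 19 alternatives. The others were array quality weights, which called 10 (their estimation did not converge), the same weights estimated gene by gene, with 7, and the fit without control 3 and *ob/ob* 3, with 7. The number past an unadjusted p under 0.05, 1 with all arrays, was 10, 7, and 7 under these and 0 under the scan block and the methods' t-test, and it ran from 0 to 3 with single arrays left out. Replicate numbers did not pair the arrays (the correlation of deviations was −0.781, −0.658, and −0.850 for numbers 1, 2, and 3), and the replicate block gave 0 genes, 139 probes higher, and 220 lower.

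Scaling to the 75th percentile moved the median difference of all genes from −0.086 to −0.30, so that differences there are relative to that shift. Over all probes, 598 were higher and 478 lower by 2-fold or more at an unadjusted p under 0.05. That scaling gave 139 and 312, normexp 128 and 310, the weights 5308 and 5678 or, gene by gene, 5280 and 5848, the scan block 35 and 113, the methods' t-test 327 and 313, leaving out control 3 and *ob/ob* 3 5869 and 6789, detection on all arrays 394 higher, and single arrays left out 112 to 1762 and 173 to 1170. These lowest and highest counts came without control 2 and without control 3, and leaving out *ob/ob* 3 gave 1685 and 1029.

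The median difference of the lipolysis genes (−0.56) was −0.44 with normexp, −0.20 and −0.16 with the weights, −0.33 with the scan block, −0.095 without control 3 and *ob/ob* 3, and −0.44 to −0.088 with single arrays left out. With the weights, the weights gene by gene, and without those 2 arrays, the synthesis genes (−1.09) had medians of −2.66, −2.67, and −2.91, the other lipolysis genes (−0.18) −0.88, −0.92, and −1.18, and the other synthesis genes (−0.11) −0.84, −0.73, and −0.62. The synthesis genes had −0.46 with normexp, −0.76 where *Gpam* was left out by detection on all arrays, and −1.71 with the scan block. Without control 3 and *ob/ob* 3 the 3 lipases (−0.58) had −2.15. With single arrays left out, the medians ran from −1.72 to −0.63 for the 3 lipases, −2.07 to −0.65 for the synthesis genes, −0.69 to −0.089 for the other lipolysis genes, and −0.59 to 0.080 for the other synthesis genes, and the differences from −0.89 to −0.088 for *Lipe*, −0.38 to 0.21 for *Abhd5*, −0.080 to 0.058 for *G0s2*, and −1.72 to 0.10 for *Pnpla2*. Directions turned for *Pnpla2* without control 1 (0.10), *Lipe* without control 3 and *ob/ob* 3 (0.16), *Abhd5* with scaling to the 75th percentile (0.042), the weights gene by gene (0.077), without *ob/ob* 3 (0.21), and without both (0.27), and *G0s2* with normexp (0.063), the scan block (0.068), and without control 2 (0.058). The cause was not tested.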
